A study of Mus musculus with 11 samples.

Results

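Transcripts of the nuclear genes for respiratory complex I were followed in whole hearts of female mice from a polycystic ovary syndrome (PCOS) model. The members are all rows of the deposited FPKM table whose RefSeq accession belongs to a gene with a symbol starting with Nduf (mouse assembly GRCm38) and whose mean over all samples is at least 1 FPKM. There were 42 such rows among 21878 in the table, and no Nduf row lay below that level. They comprise 36 rows other than Ndufaf, called subunits here, and 6 Ndufaf assembly factors. Ndufaf1, Ndufaf2, Ndufa13, Ndufb1, Ndufb2, Ndufb8 and Ndufb4c had no matched row and were not analysed here, nor were the subunits encoded by mitochondrial DNA.

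All mice carried the wild-type (WT) genotype. The 6 control hearts came from mice given PBS vehicle before birth, and the 5 PCOS hearts came from mice given anti-Müllerian hormone before birth (PAMH). The study compared gene expression between these groups. The labels give no age, strain background, dam, litter or collection day and do not say that every sample is a separate mouse, so a p-value here reflects how these samples scatter, and part of that scatter may be technical. Levels are in FPKM, which divides the fragments of a gene by the length of its transcript and by the number of fragments in the library.

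Complex I takes electrons from NADH made in the mitochondrial matrix, passes them through a flavin and a chain of iron-sulfur clusters to ubiquinone, and pumps protons across the inner membrane. A set of core subunits conserved from bacteria carries the chemistry. The many accessory subunits, also called supernumerary, surround the matrix arm and the membrane arm, and assembly factors of the Ndufaf family act during construction without staying in the finished enzyme. The heart, which depends on oxidative phosphorylation, is among the tissues with the most mitochondria. NRF1, GABP (an ETS-family factor), YY1 and the estrogen-related receptors are known regulators of respiratory chain genes.

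Promoter sequence was read from RefSeq for 36 of the 42 members in a window from 250 bases before to 50 bases after each transcript start (GRCm38.p6), and 4 promoters are shown because they contrast a member with a low unadjusted p (Ndufa11), a second subunit (Ndufs5) and an assembly factor (Ndufaf4), all holding the NRF1 letters, with a core subunit (Ndufv2) that lacks them. The capitals mark the letters searched for NRF1 (GCGCA, any base, then GCGC), and each stretch lies upstream of the start and outside annotated exons.
Ndufa11 chr17:56717686-56717761 (+): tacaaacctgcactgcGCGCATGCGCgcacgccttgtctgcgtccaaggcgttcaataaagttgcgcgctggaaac
Ndufs5 chr4:123718203-123718336 (-): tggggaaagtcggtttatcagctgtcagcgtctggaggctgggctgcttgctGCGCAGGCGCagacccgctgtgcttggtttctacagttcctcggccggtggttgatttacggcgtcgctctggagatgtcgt
Ndufaf4 chr4:24897933-24898082 (+): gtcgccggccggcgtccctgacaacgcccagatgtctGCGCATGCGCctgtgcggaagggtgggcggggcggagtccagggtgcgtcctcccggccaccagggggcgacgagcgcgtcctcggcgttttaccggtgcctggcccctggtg
Ndufv2 chr17:66101560-66101709 (-): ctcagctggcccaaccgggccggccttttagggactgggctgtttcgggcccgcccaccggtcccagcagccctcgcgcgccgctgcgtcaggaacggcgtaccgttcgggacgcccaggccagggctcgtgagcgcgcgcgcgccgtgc

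The first base of the NRF1 letters lay at -60 from the start in Ndufa11, at -98 in Ndufs5 and at -113 in Ndufaf4. On either strand these letters were present in 9 of the 36 member promoters (25.0%) and in 5.19% of the 27025 promoters of the RefSeq table. They were found in Ndufa11, Ndufa5, Ndufa6, Ndufa8, Ndufaf4, Ndufaf5, Ndufb4, Ndufs5 and Ndufs6. The YY1 letters AANATGGCG were present in 8 members (22.2%), against 2.76% of all promoters. The ETS letters CCGGAAG were present in 5 members (13.9%), against 9.93% of all promoters. The estrogen-related receptor letters TCAAGGTCA were in 0 members, against 0.466% of all promoters. The searched motifs were counted separately, and a match is a run of letters, not a measured binding site. The promoters used as background belong to genes whether or not they are expressed in the heart. Shares among expressed genes were not counted, so these percentages do not set complex I genes apart from other expressed genes.

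Complex I subunit transcripts were abundant in every heart and assembly factor transcripts were not. The 33 established subunits with a row summed to 20960 ± 2649 FPKM in controls (SD, n = 6) and 22910 ± 1809 FPKM in PCOS hearts (SD, n = 5), which is 4.18% ± 0.26 and 4.41% ± 0.21 of all FPKM in the table. The 6 Ndufaf rows summed to 173 ± 17.2 FPKM in controls and 175 ± 6.92 FPKM in PCOS hearts. The highest level belonged to Ndufa4, a protein first assigned to complex I and now regarded as a subunit of complex IV, which ranged from 2320 to 3624 FPKM in controls and from 2440 to 3100 FPKM in PCOS hearts. The lowest level belonged to Ndufb4b, a copy of Ndufb4, which ranged from 4.88 to 10.1 FPKM in control and from 4.88 to 7.86 FPKM in PCOS hearts. Every established subunit was above every Ndufaf row in both group means. Because these levels are per length, they can be set side by side between genes, with the limit that the length used by the authors did not always match the annotation.

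**Figure D1:**
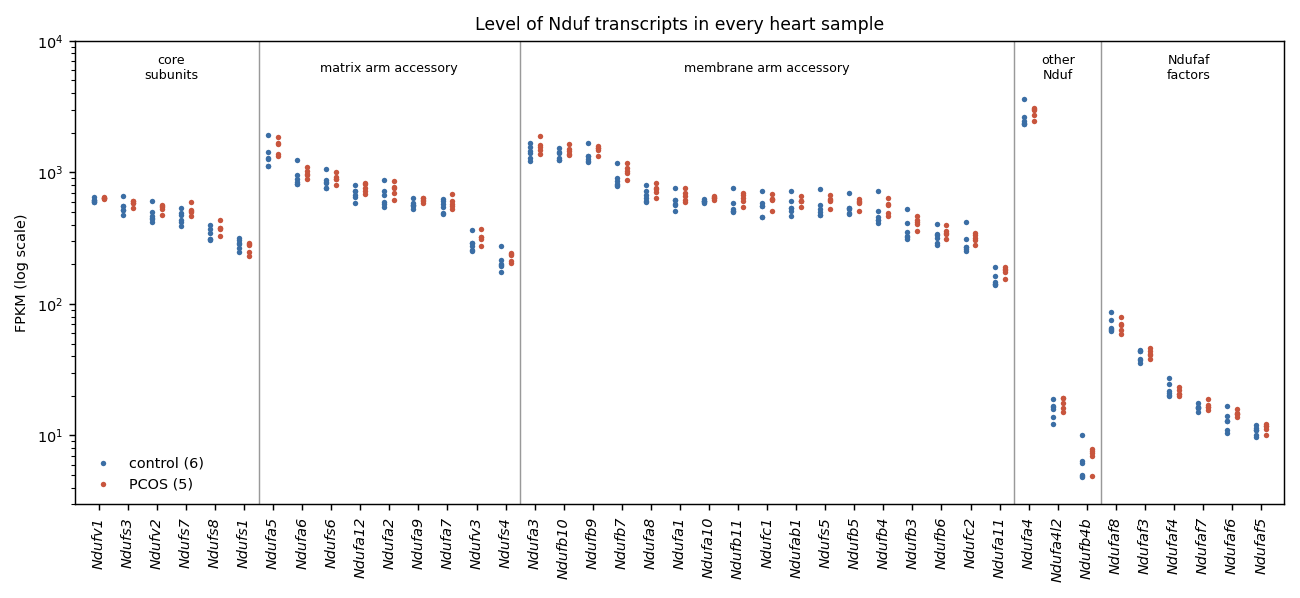
Level of 41 Nduf transcripts in FPKM (log axis) in all 11 hearts, one point per sample, blue for control and red for PCOS, grouped by role. Subunits lie above 100 FPKM, apart from Ndufa4l2 and Ndufb4b, and Ndufaf factors below 100 FPKM, and the groups overlap for every gene.

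Recovered read totals ran from 11866291 (control 5) to 14346620 (PCOS 3), and members held 28 to 22906 reads in a sample. Control 6 was the least typical library. Its correlation with the other samples had a median of 0.962, against 0.987 to 0.993 for the others, and its 9 liver markers summed to 1923 FPKM, against 8.44 to 26.0 in the other controls and 13.7 to 18.1 in PCOS hearts. The labels do not explain this library, so results that rest on it are given with and without it. Of 15 ventricular cardiomyocyte markers, 14 had a row and none of these was at 0, which fits the tissue label. In such bulk tissue, fewer cells of a type and less RNA per cell cannot be told apart.

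No member passed the test between PCOS and control hearts, although nearly all were higher in PCOS by a small amount. Each difference is the PCOS mean less the control mean of log2(FPKM + 1), from limma fitted to the 10891 rows with a mean of at least 1 FPKM, with Benjamini-Hochberg adjustment over all of them. The count called at an adjusted p of 0.05 was 0 of 42, against 0.138% of all tested rows (15), and the members' adjusted p in this limma fit ran from 0.738 to 0.961. At an unadjusted p under 0.05, 2 members were higher, Ndufa11 and Ndufs7, and 0 were lower, against 3.51% and 3.17% of all tested rows. A fit of the recovered reads with voom also called 0 members, and 1 member was at an unadjusted p under 0.05.

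The direction was nearly uniform. The difference was positive for 39 of 42 members, with a median of 0.14, while 50.6% of all tested rows were positive with a median of 0.002. Among the 36 subunits 35 were positive, with a median of 0.14 and a range from -0.10 to 0.23, and among the 6 Ndufaf rows 4 were positive, with a median of 0.05. The subunit median was 0.09 with values rescaled to TPM, where the median of all tested rows was -0.047. It was also 0.09 after quantile normalization, where the median of all tested rows was 0.002. The members share their libraries, so these are not independent repeats of one result. No member had every PCOS sample above every control (background 0.45%) or every PCOS sample below every control (background 0.248%). All 5 PCOS samples exceeded the control median in 20 members. How often other genes did so was not counted, so this number has no background here. The upper 95% bound reached 0.52, for Ndufa5, so the intervals do not show that the groups were alike.

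**Figure D2:**
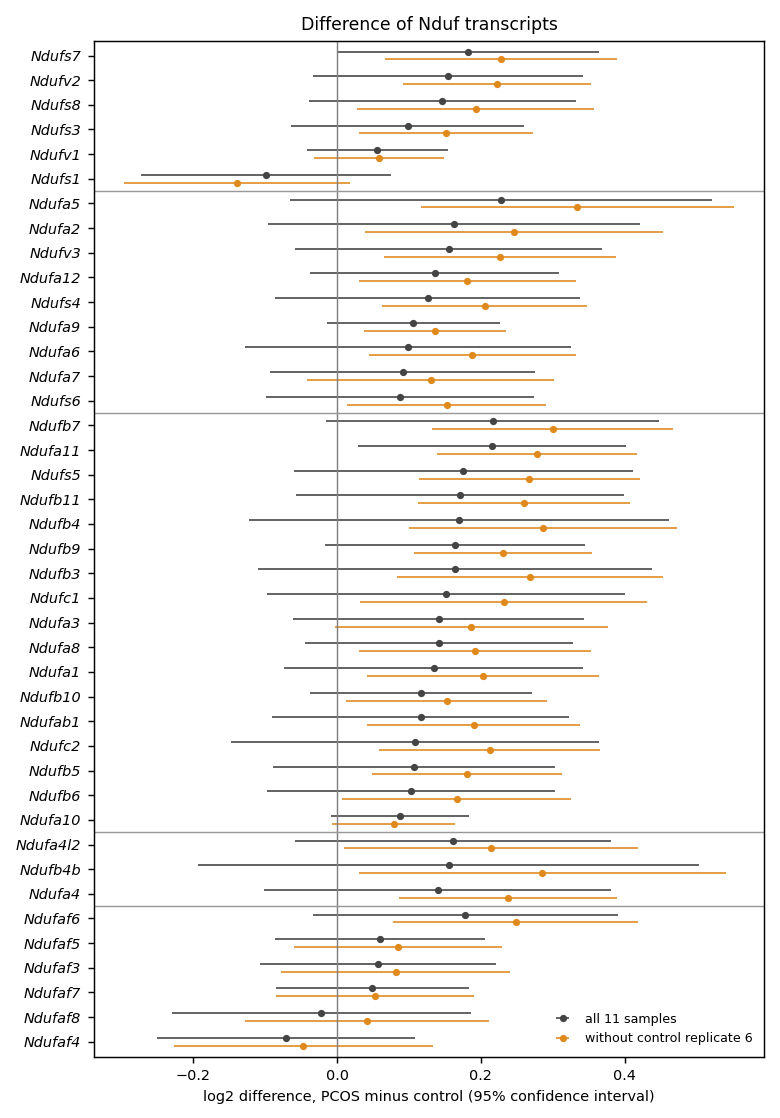
Difference of 41 Nduf transcripts (log2(FPKM + 1), PCOS minus control) with 95% confidence intervals, for all 11 samples (dark) and without control 6 (orange), grouped by role. With all samples only the intervals of Ndufs7 and Ndufa11 lie above 0. Points move to the right without control 6 for most subunits, and Ndufs1 stays on the negative side.

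Among the 7 core subunits, which bind the flavin, the iron-sulfur clusters and ubiquinone, the difference was positive for 6, with a median of 0.10. Ndufs7 carries the iron-sulfur cluster that hands electrons to ubiquinone. Its level was 391 to 532 FPKM in controls with a median of 454, and 593, 520, 509, 464 and 501 FPKM in PCOS 1 to 5. PCOS 1 was the highest of all samples and all 5 PCOS samples exceeded the control median, but control 6 lay above 4 of them. The difference was 0.18 ± 0.08 (SE), with an unadjusted p of 0.0493 and an adjusted p of 0.738 (limma).

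Ndufs1, the largest core subunit, which holds iron-sulfur clusters of the electron entry module, was the only subunit with a negative difference. Its level was 248 to 320 FPKM in controls with a median of 289, and 232, 247, 284, 292 and 278 FPKM in PCOS 1 to 5. Its lowest samples were PCOS 1, PCOS 2 and control 6, and the groups overlapped. The difference was -0.10 ± 0.08 (SE; limma adjusted p = 0.796), and -0.14 without control 6 (limma adjusted p = 0.313). The annotated exons of Ndufs1 share 498 bases with genes on the opposite strand, and whether counting used strand is not given in the sources used here. Such an overlap was found in 14 members, and its part in their values was not tested.

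Ndufv1, which binds NADH and the flavin, varied little, from 592 to 644 FPKM in controls and from 622 to 655 FPKM in PCOS hearts, with a difference of 0.06 ± 0.05 (SE; limma adjusted p = 0.795). Ndufv2, its iron-sulfur partner, had 480 ± 66.4 FPKM in controls and 532 ± 33.3 FPKM in PCOS hearts, a difference of 0.15 (limma adjusted p = 0.745). Ndufs8, which carries iron-sulfur clusters between the entry module and Ndufs7, had a difference of 0.15. Ndufs3, part of the module next to the ubiquinone site, had a difference of 0.10. Summed over the 7 rows, core subunits made up 0.705% ± 0.0106 of all FPKM in controls and 0.720% ± 0.0113 in PCOS hearts.

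All 9 accessory subunits of the matrix arm had a positive difference, with a median of 0.13, and 0 were called. Ndufa9 sits beside the ubiquinone site. Its level was 526 to 633 FPKM in controls with a median of 567, and 641, 603, 614, 587 and 633 FPKM in PCOS 1 to 5. Without control 6 it was the only member in which every PCOS sample exceeded every control, a pattern found in 1.7% of all tested rows and in 5.8% of genes with transcripts of like length, while no member had every PCOS sample below every control (background 1.85%). The difference was 0.11 ± 0.06 with all samples (SE; limma adjusted p = 0.738) and 0.14 without control 6 (limma adjusted p = 0.152).

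Ndufa5, chosen here after its values were seen, had the highest difference of all members at 0.23 ± 0.14 (SE; limma adjusted p = 0.753), with 1354 ± 302 FPKM in controls and 1571 ± 221 FPKM in PCOS hearts. Control 6, at 1919 FPKM, was its highest sample. Ndufa12, the accessory subunit that replaces its paralog Ndufaf2 late in assembly, had a difference of 0.14 (limma adjusted p = 0.752). Ndufs4 and Ndufs6, whose loss impairs complex I in mice, had differences of 0.13 and 0.09, with 210 ± 33.8 against 228 ± 17.3 FPKM for Ndufs4 and 855 ± 111 against 904 ± 71.3 FPKM for Ndufs6 in control and PCOS hearts.

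All 17 accessory subunits of the membrane arm had a positive difference, with a median of 0.14, and 0 were called. Ndufa11 lies where complex I touches complex III in respiratory supercomplexes. Its level was 139 to 189 FPKM in controls with a median of 144, and 191, 182, 183, 155 and 176 FPKM in PCOS 1 to 5. All PCOS samples exceeded the control median, while control 6 lay above 4 of the 5 and control 3 above PCOS 4. The difference was 0.22 ± 0.09 (SE), with an unadjusted p of 0.0267, the lowest of the members, and an adjusted p of 0.738 (limma). Without control 6 it was 0.28 with a limma adjusted p of 0.0930.

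Ndufb7, a twin-cysteine protein on the intermembrane space side, had 781 to 1178 FPKM in controls with a median of 835, and 1184, 1079, 1028, 868 and 992 FPKM in PCOS 1 to 5. Control 6 and PCOS 1 were nearly equal at the top, and the other 5 controls lay at or below 912 FPKM. The difference was 0.22 ± 0.11 (SE; limma adjusted p = 0.738). Ndufb9, which holds an LYR motif and binds the acyl carrier protein Ndufab1, had 1332 ± 174 FPKM in controls and 1485 ± 95.7 FPKM in PCOS hearts, a difference of 0.16 (limma adjusted p = 0.738).

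Ndufa10, a subunit with a nucleoside kinase fold, behaved differently from its neighbours in control 6. Its level was 585 to 622 FPKM in controls with a median of 606, and 661, 640, 653, 636 and 621 FPKM in PCOS 1 to 5. Control 6 was the lowest of all 11 samples, and 4 of the 5 PCOS samples exceeded every control. The difference was 0.09 ± 0.04 (SE; limma adjusted p = 0.738) and 0.08 without control 6. Ndufa1 and Ndufb11, both encoded on the X chromosome, had differences of 0.13 and 0.17. Differences of the membrane arm accessory subunits ranged from 0.09 (Ndufa10) to 0.22 (Ndufb7), with limma adjusted p from 0.738 to 0.830.

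Of the rows named Nduf that are not established complex I subunits, Ndufa4 had a difference of 0.14 (limma adjusted p = 0.795). Ndufa4l2, a hypoxia-inducible relative of Ndufa4, was low, with a mean of 15.7 ± 2.31 FPKM in control hearts against 17.5 ± 1.9 FPKM in PCOS hearts, a difference of 0.16 (limma adjusted p = 0.753). Ndufb4b had 6.25 ± 2.0 and 6.95 ± 1.2 FPKM, a difference of 0.16 (limma adjusted p = 0.827). The length used for Ndufb4b equals its whole span on the genome, which leaves no intron, and how reads were divided between it and Ndufb4 is uncertain.

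The 6 assembly factors had a smaller median difference (0.05) than the subunits (0.14), and their signs were mixed. Their transcripts were longer, with a median of 1971 bases against 710 for subunits. Other genes of 1500 to 2000 bases had a median difference of 0.05, so the smaller median is not particular to assembly factors. Ndufaf6, needed in human cells to make a subunit encoded by mitochondrial DNA, had 10.4 to 16.6 FPKM in controls with a median of 12.9, and 15.8, 14.7, 13.7, 14.5 and 14.6 FPKM in PCOS 1 to 5. All PCOS samples exceeded the control median and control 6 exceeded all of them. The difference was 0.18 ± 0.10 (SE; limma adjusted p = 0.742), the highest of the Ndufaf rows. Ndufaf3 and Ndufaf4, which work as a pair on the ubiquinone module, differed by 0.06 and -0.07. Ndufaf4 had 22.6 ± 2.89 FPKM in controls and 21.3 ± 1.40 FPKM in PCOS hearts, and its partner 40.6 ± 4.09 and 42.2 ± 2.91 FPKM.

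Ndufaf5, which hydroxylates an arginine of Ndufs7, differed by 0.06, with 10.9 ± 0.81 FPKM in controls and 11.4 ± 0.84 FPKM in PCOS hearts. Ndufaf7, a methyltransferase that acts on a core subunit, differed by 0.05. Ndufaf8, known in human cells as a partner of NDUFAF5, differed by -0.02, with 61.7 to 86.0 FPKM in controls and 59.5, 63.2, 79.4, 68.9 and 69.8 FPKM in PCOS 1 to 5. PCOS 1, the highest PCOS sample for many subunits, was the lowest sample for Ndufaf8, and control 6 was its highest. Whether assembly factors and subunits differ in their response was not tested.

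Subunit transcripts moved up and down together from heart to heart. This was shared with other genes with transcripts of like length, whose median followed the subunit median over the 11 samples (Pearson r = 0.978). The SD of log2(FPKM + 1) over the 11 samples had a median of 0.175 among subunits. Once each sample's median over the other subunits was subtracted, it was 0.069, falling for 31 of 36. A subunit did not enter the median subtracted from it, but all subunits share their libraries. The SD rose for 5, among them Ndufs1 (0.140 to 0.284), Ndufv1 (0.045 to 0.149), Ndufa9 (0.089 to 0.098) and Ndufa10 (0.055 to 0.159). A rise alone does not mean that a row ran apart from the other subunits. Pearson r with their median was -0.715 for Ndufs1, 0.298 for Ndufa10, 0.515 for Ndufv1 and 0.881 for Ndufa9. Ndufs1 and Ndufv1 are core subunits of the module where electrons enter, but for Ndufv2, the partner of Ndufv1, the SD fell (0.166 to 0.045). Among the Ndufaf rows the SD rose for 3 of 6.

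**Figure D3:**
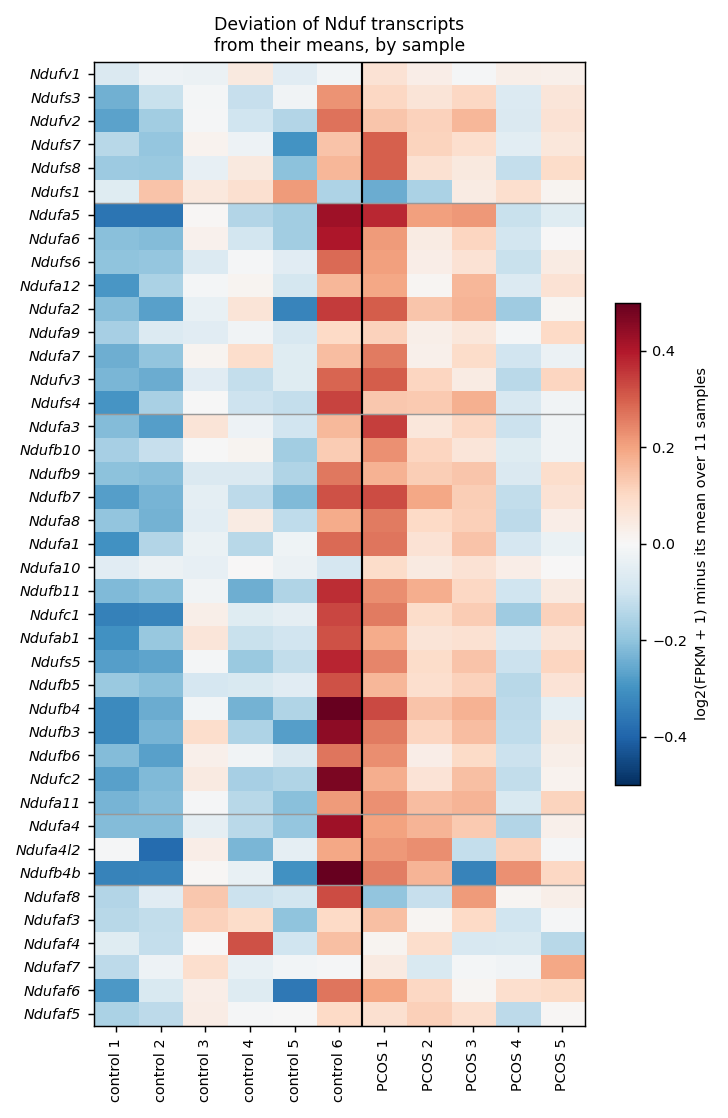
Deviation of log2(FPKM + 1) from its mean over the 11 hearts for 41 Nduf transcripts (rows, by role) and sample (columns), red for above and blue for below. Most subunit rows are blue in controls 1, 2 and 5, red in control 6 and PCOS 1 to 3, and pale blue in PCOS 4, while Ndufs1 runs the other way and Ndufv1 and Ndufa10 are nearly flat.

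The spread within the groups was about as large as the gap between them. The median deviation over the 36 subunits was -0.22, -0.21, -0.01, -0.07, -0.12 and 0.28 in controls 1 to 6, and 0.23, 0.09, 0.11, -0.10 and 0.04 in PCOS 1 to 5 (log2). The group means were -0.059 ± 0.183 (SD, n = 6) and 0.075 ± 0.117 (SD, n = 5). Control 6 was the highest sample and PCOS 4 lay below control 3 and control 4, so the groups overlapped. Control 6 was the highest of the 11 samples for 23 of 42 members, against 18.7% of all tested rows and 43.7% of genes of like length. Cardiomyocyte markers, like the subunits, had their lowest median deviation in control 1 (-0.13). Unlike the subunits, which were highest in control 6, these markers were highest in PCOS 1 (0.07) and at -0.03 in control 6.

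Without control 6 the members' differences were larger, and still 0 of 42 were called, against 0.294% of all tested rows. The subunit median was 0.20 and the Ndufaf median 0.07, and the medians of the core, matrix arm and membrane arm subunits were 0.15, 0.19 and 0.21. At an unadjusted p under 0.05, 31 of 42 members were higher, among them 30 of 36 subunits, and 0 were lower, against 9.62% higher and 9.75% lower of all tested rows. The share higher was 33.1% in genes of like length, chosen by transcript length, and 53.7% in those of them with a mean of at least 100 FPKM. The adjusted p of the 42 members in this limma fit ran from 0.0930 to 0.803. The part of the liver-marked library in the result with all 11 samples was not tested beyond this removal.

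Other genes with short transcripts also had mostly positive differences. Genes of like length were taken as the 1654 tested rows outside the Nduf set whose length lay between the 10th and the 90th percentile of the subunits, 482 to 1616 bases, where length is the one implied by the FPKM value of 1 read. Their median difference was 0.08 (0.13 without control 6), 77.1% were positive and 10 were called, against a subunit median of 0.14 with 35 of 36 positive. Their median deviation per sample was -0.039 ± 0.121 in controls (SD, n = 6) and 0.046 ± 0.056 in PCOS hearts (SD, n = 5), a gap within the spread between samples. The 339 of them with a mean of at least 100 FPKM, a comparison chosen after the values were seen, had a median of 0.10 and 300 were positive.

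Across length ranges, the median of other genes fell from 0.11 at up to 500 bases to -0.05 above 5000 bases. Spearman's rho between length and difference was -0.37 across all tested rows with a length and -0.21 across the 36 subunits, as a description across genes, which are not independent replicates. In each range that held subunits, their median was above that of other genes. It was 0.15 against 0.11 up to 500 bases (6 subunits), 0.14 against 0.11 from 500 to 750 bases (13 subunits), and 0.15 against 0.07 from 1000 to 1500 bases (7 subunits). The 5 subunits of 1500 to 2000 bases had 0.13 against 0.05.

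**Figure D4:**
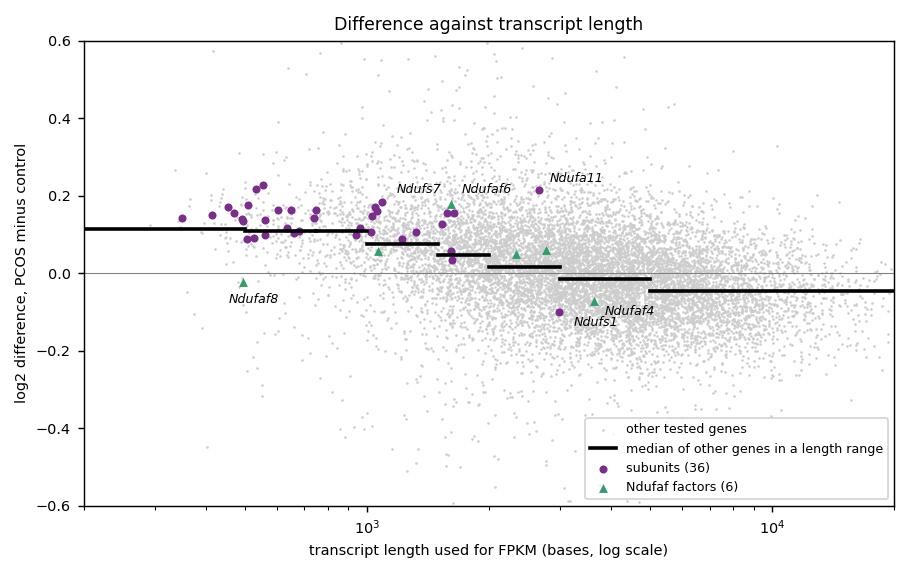
Difference (PCOS minus control, log2) against the transcript length used for FPKM (log axis) for other tested genes (grey), subunits (purple) and Ndufaf factors (green). Black lines give the median of other genes in each length range, falling from 0.11 to -0.05, and 114 other genes lie outside the vertical axis limits of 0.6 on either side. Most subunits sit on or above the lines, Ndufa11 and Ndufaf6 well above, and Ndufs1 and Ndufaf8 below.

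With the trend on length removed from every sample, the median difference of subunits was 0.02 with 25 of 36 positive, that of the Ndufaf rows -0.004, and that of genes of like length -0.004 with 48.1% positive, against 49.3% of all tested rows. No member was called (background 0.11%), with limma adjusted p from 0.752 to 0.998. At an unadjusted p under 0.05, 2 members were higher, Ndufb7 and Ndufa11, and 0 were lower, against 3.11% and 3.32% of all tested rows. Removing both the trend and control 6 gave a subunit median of 0.04 with 24 of 36 positive, and 8 of 42 members higher and 0 lower at an unadjusted p under 0.05, against 5.94% and 7.47% of all tested rows. Of genes of like length 7.19% were higher in that fit.

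The length of Ndufa11 bears on its place in this comparison. The authors' value implies 2661 bases for Ndufa11, while the GENCODE transcript tied to the same accession has 545, so the trend for long genes was applied to a transcript annotated as short. Of 37 members with such a linked transcript, 31 had a used length within 1.5 times of it. For the 6 others, levels per length in FPKM carry this uncertainty, while a ratio between samples of 1 gene does not depend on it.

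**Figure D5:**
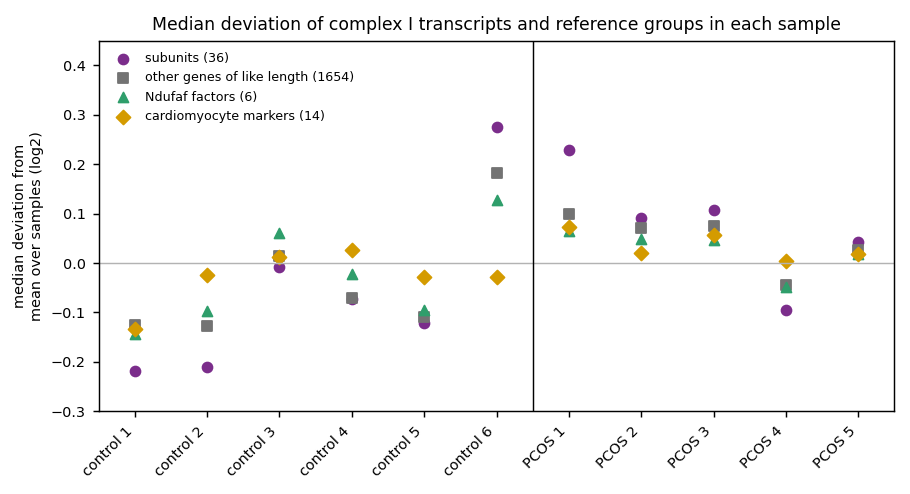
Median deviation from the mean over samples (log2) in each heart for the 36 subunits, 1654 other genes of like length, 6 Ndufaf factors and 14 cardiomyocyte markers. Genes of like length take a similar order of low and high hearts to the subunits at smaller amplitude, from -0.13 to 0.18 against -0.22 to 0.28, while cardiomyocyte markers stay between -0.13 and 0.07.

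Lists of other pathway genes had medians near or below 0, and 0 genes were called in any of them. The 14 other assembly factors had a median difference of 0.03 (0.009 without control 6), 9 positive and 5 negative. Among them Chchd4, the import receptor for twin-cysteine proteins, differed by -0.17 ± 0.08 (SE; limma adjusted p = 0.738) and Ecsit, a member of the membrane arm assembly complex, by 0.11 ± 0.06 (SE; limma adjusted p = 0.745). The 10 transcriptional regulators had a median of -0.05 (-0.11 without control 6), with 7 negative. Yy1 had 13.99 ± 0.80 FPKM in controls and 12.2 ± 1.2 FPKM in PCOS hearts, a difference of -0.18 (limma adjusted p = 0.738). Gabpa, the DNA-binding subunit of GABP, differed by -0.23 (limma adjusted p = 0.738).

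The 9 other enzymes that reduce ubiquinone had a median difference of -0.05 (-0.04 without control 6), with Etfdh, which passes electrons from fatty acid oxidation, at -0.15 and Sdhb, an iron-sulfur subunit of complex II, at 0.10. The 12 matrix dehydrogenases that make NADH had a median of -0.04 (-0.08 without control 6), with Mdh2 at 0.08 and Pdha1, a subunit of pyruvate dehydrogenase, at -0.12. The 10 markers of mitochondrial mass had a median of 0.01, 5 positive and 5 negative. Longer transcripts are present in these lists, and with the length trend removed their medians were -0.02, -0.004, -0.07, -0.06 and -0.03 in the order given.

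Of the markers of other cells, 1 passed the test. All 7 macrophage markers had a positive difference, with a median of 0.55, and 1 was called, Cd68 (limma adjusted p = 0.000298). Their summed level was 131 to 252 FPKM in controls and 279 to 389 FPKM in PCOS hearts. The 6 erythroid markers had a median of 0.71 with 0 called, and summed levels of 531 to 1531 and 851 to 2233 FPKM. The 14 cardiomyocyte markers had a median of 0.04 with 0 called, and summed levels of 61886 to 72151 and 68333 to 74785 FPKM. The median for fibroblast markers was -0.01 with and without control 6, and that for endothelial markers was -0.05, and 0.03 without control 6, with 0 called in either list. The part of these cell markers in the complex I values was not tested.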

How the data were processed

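Poly(A)-selected RNA libraries (TruSeq Stranded mRNA LT) were made from total heart RNA, per the labels' protocols. Per the submitters' processing notes, the tools named were HISAT2 2.2.1 and HTSeq 0.13.5, beside Trimmomatic 0.38, FastQC 0.11.9 and DESeq2 1.18.1 (R 3.4.1), on build mm10. No role or order is given there, and the settings are not given in the sources used here. The authors deposited FPKM values per RefSeq accession, and 87.2% of rows were matched to a symbol, 28 members by exact accession and 14 by another version. FPKM values were whole multiples of a 1-read step within 0.005 of a read in 15939 of 15939 rows above 0 in at least 3 samples, which gave reads and lengths. Differences came from limma 3.58.1 (R 4.3.3) with a trended variance on log2(FPKM + 1), for rows with a mean of at least 1 FPKM, without covariates. The length trend was a loess fit per sample (span 0.3). Scripts were tested on simulated data.

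Alternatives were a pseudocount of 0.1, no filter or a mean of 5 FPKM, median-ratio scaling, quantile normalization, removal of the length trend, voom on recovered reads, a replicate block, leaving out each sample, and, chosen after seeing the data, rescaling to TPM and removal of the length trend without control 6. Named genes are the core subunits (1 is not reported by name here but stays in counts, sums and medians) and Ndufaf rows, Ndufa4, Ndufa4l2, the highest and lowest rows by mean FPKM, the 6 other rows higher in PCOS with the smallest p, and from each pathway list the 2 with the smallest p. Ndufa5, Ndufs4, Ndufs6, Ndufa1 and Ndufb11 fall outside this rule and were chosen after their values were seen, as were genes named for their sequence, an outlying sample or the macrophage marker called. The members and lists were chosen with earlier results of these data known.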

Additional observations from a re-analysis of the deposited data

Results flagged for a closer look

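In 13 of 84 groups (42 members in control and in PCOS hearts) 1 sample lay far from the other samples of its group by Dixon's criterion. Chance alone flags about 1 in 20 groups if they are independent. The members share their libraries, so these groups are not independent, and flags in other genes were not counted. In 12 of the 13 the outlying sample was control 6, the library with the liver transcripts, and each time it was the highest control. Control 6 was also the highest of the 11 samples for 43.7% of genes of like length. Its levels were 1250 FPKM for Ndufa6, 1063 FPKM for Ndufs6 and 367 FPKM for Ndufv3 among the matrix arm subunits. Among the membrane arm subunits they were 761 FPKM for Ndufb11, 726 FPKM for Ndufb4, 699 FPKM for Ndufb5, 1178 FPKM for Ndufb7, 1671 FPKM for Ndufb9, 420 FPKM (419.72) for Ndufc2 and 743 FPKM for Ndufs5. Ndufa4 was at 3624 FPKM and Ndufb4b at 10.1 FPKM in the same library.

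The remaining value was PCOS 4 for the core subunit Ndufs3, at 536 FPKM, below the 587 to 604 FPKM of the other PCOS hearts. Control 6 was not removed from the comparison with all samples, and the values without it stand beside that comparison.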

How the results depend on the processing

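The count of members called was 0 under every alternative run. The number of genes called in the whole table was 15, 5 with a filter at a mean of 5 FPKM, 25 with a replicate block, and from 10 to 32 with 1 sample left out, where 32 is without control 6. Medians of subunits, Ndufaf rows and genes of like length kept their sign, except the Ndufaf median and the median of genes of like length once the length trend was removed. Leaving out 1 sample moved the subunit median between 0.098 (without PCOS 1) and 0.204 (without control 6), the Ndufaf median between 0.030 and 0.075, and the median of genes of like length between 0.062 and 0.127. Single genes changed sign near 0, and those listed next are only from the genes named by rule. The count of positive members fell from 39 of 42 to 28 with the length trend removed, and to 27 without control 6 as well. Among members outside the rule, Ndufs6 went from 0.088 to -0.045 with the trend removed. With quantile normalization Ndufv1 was -0.0009. With the length trend removed Ndufv1 was -0.0006, Ndufs3 -0.0004 and Ndufaf3 -0.034, and without control 6 as well Ndufv1 was -0.020, Ndufaf3 -0.052, Ndufa10 -0.039 and Ndufa12 -0.017. Rescaled to TPM, which moved the median of all rows to -0.047, Ndufaf7 was -0.0016. Ndufaf8 ran from -0.078 to 0.042 with 1 sample left out, changing sign without control 3, control 6, PCOS 1 or PCOS 2. The cause of these changes was not tested. Same-numbered samples of the groups had low correlations (0.13, -0.03, -0.12, 0.25 and 0.10 for numbers 1 to 5). Only control 4 correlated best with the PCOS sample of its own number. The labels name no pairing, and these correlations cannot exclude one, so whether the numbers pair samples is unknown. In the fit with the replicate block control 6 has no partner, so it does not enter the differences. That fit gave a subunit median of 0.204 and Ndufaf8 at 0.042, the same as without control 6, and these are not a separate result. Depth limits Ndufb4b most, at 28 reads in its lowest sample.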
